A study of Mus musculus with 2 samples.

Results

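Activity-dependent genes are switched on within minutes to hours when a neuron fires and calcium enters it. 9 of the 31053 genes in the matrices were followed here, chosen by name: the transcription factors Egr1, Egr3, Npas4, Nr4a1, Nr4a2 and Nr4a3, and the synaptic genes Arc, Homer1 and Nptx2. They were measured by single nucleus RNA sequencing (snRNAseq) of sorted nuclei from injured mouse cortex. The mice carried Atf3-CreER (+/wt) and SUN-SfGFP (+/wt), so tamoxifen given while the injury gene Atf3 is on leaves a green nuclear envelope. Each mouse was over 7 weeks old, had 1 mild traumatic brain injury (mTBI), received tamoxifen at 4 and 5 days post injury (dpi), and gave its ipsilateral cortex at 7 dpi. Nuclei positive for GFP and for the DNA dye DRAQ5 were sorted from a pool of 4 males and a pool of 4 females, which gave 2 libraries. The Cre was driven from Atf3, so the sort aimed at cells that had used Atf3 after injury, and microglia came through it as well as neurons. There was no uninjured group and no GFP-negative group among these samples. The values therefore compare kinds of nuclei within injured cortex and do not measure induction by the injury. In 1 library the public labels disagree on sex, and the library name was followed.

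In resting neurons these genes are held at low levels. Calcium entering through NMDA receptors and voltage-gated channels activates kinases and the phosphatase calcineurin, which act on the factors CREB, SRF and MEF2 already bound to DNA, and the first genes rise without new protein synthesis. Npas4, Egr and Nr4a proteins then drive a later wave, while Arc, Homer1 and Nptx2 act at synapses: Arc removes AMPA receptors from the membrane, Homer proteins tether glutamate receptors to the scaffold, and the secreted pentraxin Nptx2 gathers AMPA receptors, best known at synapses onto interneurons. In cortex Egr1 is also kept at a standing level by ordinary activity, which makes it one of the few immediate early genes seen without a stimulus.

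The members lie on different chromosomes apart from Arc and Nr4a1 (GRCm38, GENCODE gene models). Arc lies at chr15:74669083-74672570 on the minus strand and Nr4a1 at chr15:101254269-101274795 on the plus strand. Nr4a2 lies at chr2:57106830-57124003 on the minus strand and Nr4a3 at chr4:48045153-48086447 on the plus strand. Egr3 lies at chr14:70077203-70082614 on the plus strand, Npas4 at chr19:4984355-4990316 on the minus strand and Nptx2 at chr5:144545902-144557478 on the plus strand. Homer1, at chr13:93299635-93405129 on the plus strand, is the long gene of the set: it spans 105495 bases with 11976 bases of exons, and 2 short gene models of the same strand lie within it. Reads in introns were counted, and the sums do not separate the short activity-induced form Homer1a from the long forms.

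The promoters of the Nr4a family are shown because Nr4a1 and Nr4a3 varied together over the labels (Pearson r = 0.708 over the 22 sums of nuclei defined below). The sequences, from RefSeq (GRCm38.p6), run 5′ to 3′ on the strand of the gene and lie before the start that RefSeq gives, which for Nr4a1 is inside the longer GENCODE gene model above. Promoters of 5 of the 9 members were found in the RefSeq table, those of Homer1, Npas4, Nr4a1, Nr4a2 and Nr4a3, and those of Arc, Egr1, Egr3 and Nptx2 were not printed. Capitals mark the half-site of the cyclic AMP response element, TGACG, read on either strand, and the core GNGGGCG of the site known for Egr proteins, read on either strand. For Nr4a3 the bases nearest the RefSeq start fall in annotated exons and are not shown, so the printed stretch ends upstream of that start.
Nr4a1 (chr15:101266596-101266845, plus strand): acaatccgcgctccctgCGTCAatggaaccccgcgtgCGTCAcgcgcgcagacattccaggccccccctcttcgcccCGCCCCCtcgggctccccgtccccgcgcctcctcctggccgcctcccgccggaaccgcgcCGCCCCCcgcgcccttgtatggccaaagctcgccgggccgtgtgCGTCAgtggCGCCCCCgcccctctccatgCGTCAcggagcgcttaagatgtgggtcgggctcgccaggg
Nr4a2 (chr2:57124004-57124253, minus strand): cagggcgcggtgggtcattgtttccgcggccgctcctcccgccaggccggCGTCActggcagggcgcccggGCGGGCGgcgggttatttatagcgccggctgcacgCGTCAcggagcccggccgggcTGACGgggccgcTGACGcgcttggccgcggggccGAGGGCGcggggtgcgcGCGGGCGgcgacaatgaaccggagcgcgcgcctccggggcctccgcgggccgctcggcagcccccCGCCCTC
Nr4a3 (chr4:48045055-48045152, plus strand): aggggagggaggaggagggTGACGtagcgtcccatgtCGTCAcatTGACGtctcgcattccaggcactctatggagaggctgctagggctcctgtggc

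Each of the 3 windows of 250 bases held 4 half-sites, of which 3 fall in the stretch printed for Nr4a3. Egr cores numbered 3 for Nr4a1, 4 for Nr4a2 and 1 for Nr4a3, and no motif overlapped another. Of 32851 promoter windows of this length, 17.8% held at least 1 half-site, 28.3% an Egr core and 1.47% a CArG box, the motif of SRF, which none of the 3 held. A match is a description of letters and not a site shown to be bound.

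UMIs were summed per library over each deposited label, giving 22 sums: 6 excitatory labels (L2/3 IT CTX-1, L2/3 IT CTX-2, L4/5 IT CTX, L5 PT CTX, L6 CT CTX, L6 IT CTX), 3 inhibitory labels (Pvalb, Sst, Vip), Unknown (neuronal nuclei that were not placed in the cortex) and Micro-PVM (microglia and perivascular macrophages). Levels are CPM, which set a gene's UMIs against all UMIs of its sum on a common scale, and of paired values the first is that of the male pool. The 9 neuronal labels held 1344 and 1155 nuclei with a median of 3572 and 8519 UMIs. Unknown held 225 and 170 nuclei at 3314 and 7918, and Micro-PVM 1690 and 2338 nuclei at 1298.5 and 3012.5. The labels were mapped by the authors from these same counts. Gad2, which makes GABA, reached 315 and 266 CPM in the inhibitory and 6.13 and 5.21 CPM in the excitatory labels, whereas Pvalb mRNA was at 1.58 and 0.516 CPM in Pvalb nuclei and Sst mRNA at 3.77 and 0 CPM in Sst nuclei. Slc17a7, the glutamate transporter of excitatory neurons, was at 56.3 and 26.3 CPM in the excitatory labels and 32.1 and 11.6 CPM in Micro-PVM. The libraries shared 1 of 8171 labelled barcodes.

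Free RNA gives UMIs of a gene to nuclei that do not use it, so 2 backgrounds are given. The first is the pool of barcodes with at most 100 UMIs (uncalled barcodes). The second is Micro-PVM, where shares of nuclei with a UMI were set beside those of neurons after each nucleus was thinned to 2000 UMIs. Thinning kept 1034 and 1050 neuronal, 175 and 163 Unknown and 312 and 1907 Micro-PVM nuclei, and left out 310 and 105, 50 and 7, and 1378 and 431. In uncalled barcodes Npas4 was at 12.4 and 9.78 CPM, Egr3 at 35.2 and 7.61 CPM, Nr4a1 at 22.8 and 8.70 CPM, Nr4a2 at 12.4 and 2.17 CPM, Nr4a3 at 4.14 and 4.35 CPM and Nptx2 at 31.1 and 15.2 CPM. Each of these was above the level of the same gene summed over the neuronal labels of the same library. Arc, Egr1 and Homer1 were lower in uncalled barcodes than in neurons, at 12.4 and 16.3 CPM, 128 and 101 CPM and 186 and 167 CPM.

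The design allows 5 comparisons of kinds of nuclei, tested over the sums with edgeR's quasi-likelihood test (Benjamini-Hochberg adjusted p under 0.05). 7 of the 9 members had enough UMIs to be tested among 10610 genes. Npas4 and Nr4a2 did not. Every call below rests on only 2 pools of animals, which also differ in sex and depth. The p of a call sets it against the spread between the pools within labels, taken over all labels. The fit treats the sums of 1 pool as independent. Against microglia, 4 members were called, all as higher in neurons, where 64.6% of all genes were called in either direction, 29.6% as higher and 35.1% as lower. In inhibitory against excitatory labels, 4 members were called, all as lower, where 20.6% of genes were called, 10.8% as lower and 9.87% as higher. In L5 PT against L2/3 IT labels, 1 member was called, as lower, where 11.0% of genes were called, 4.84% as lower and 6.13% as higher. In Unknown against excitatory labels, 3 members were lower and 1 higher, where 34.8% of genes were called, 15.5% as lower and 19.3% as higher. Among the 9 neuronal labels, 5 members differed somewhere, where 32.9% of genes did.

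The split of calls over all genes depended on the scaling. With TMM factors 650 genes were higher and 513 lower in L5 PT, and with library totals 448 and 537. For inhibitory against excitatory the split was 1047 and 1141 with TMM and 811 and 1330 without. For Unknown it was 2046 and 1645 with TMM and 1521 and 2041 without, and there the median of all genes moved from 0.03 to -0.16 on the log2 scale. All 7 tested members kept their direction and their side of the threshold in each comparison under both scalings.

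**Figure D1:**
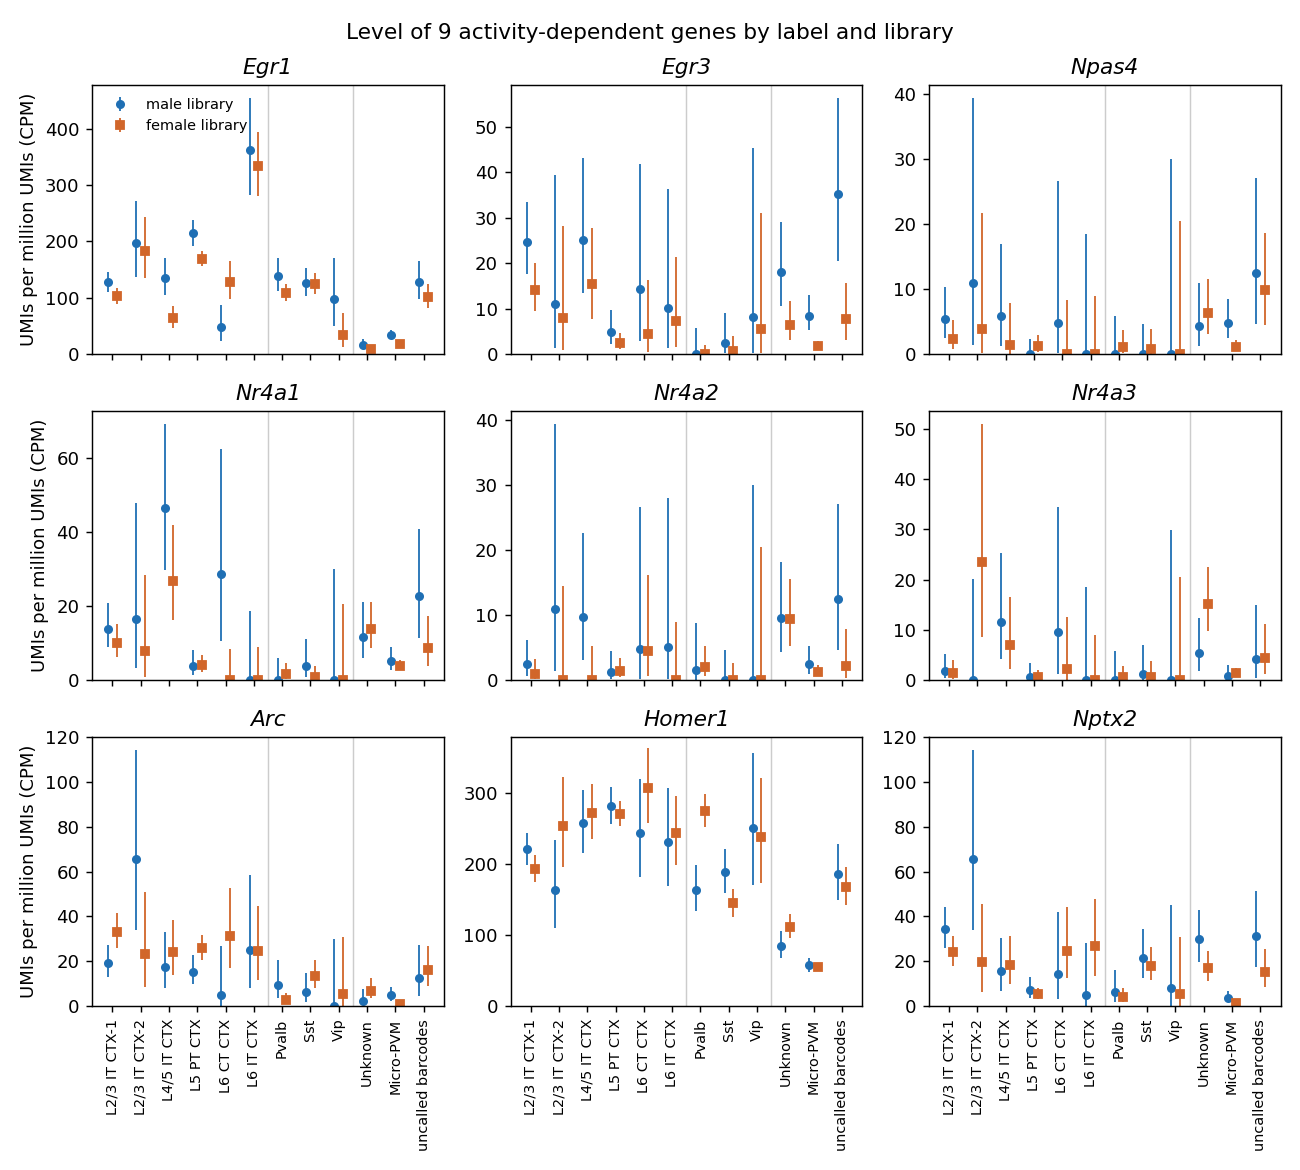
Level of each of the 9 members (CPM, linear axis from 0) by label, 1 point per library with an exact Poisson 95% interval that covers counting error only. Egr1 is highest in L6 IT CTX (361 and 334 CPM) and lies below Micro-PVM in Unknown, Homer1 is spread over all neuronal labels, and Nr4a3 has no UMI in L6 IT CTX or Vip.

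Egr1, a zinc-finger factor used as a readout of recent neuronal activity, was found in many neuronal nuclei and few microglia. Over all neuronal labels it was at 159 CPM (male) and 135 CPM (female), against 34.1 and 18.4 CPM in Micro-PVM. The share of thinned nuclei with an Egr1 UMI was 23.4% and 18.0% in neurons and 4.17% and 3.41% in Micro-PVM. Neurons and Micro-PVM did not overlap in either library, and the difference passed the test (log2 fold change 2.47 (SE 0.25), adjusted p = 4.5e-09).

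Within neurons Egr1 was ordered. L6 IT CTX stood highest at 361 and 334 CPM. L5 PT CTX followed at 214 and 169 CPM and L2/3 IT CTX-2 at 196 and 184 CPM, and these neighbours overlapped. Pvalb (139 and 108 CPM), Sst (126 and 124 CPM) and L2/3 IT CTX-1 (127 and 102 CPM) formed a middle group whose ranges also overlapped with those of L4/5 IT CTX (135 and 63.4 CPM) and L6 CT CTX (47.8 and 128 CPM). Vip, with 12 and 6 UMIs in all, was at 97.4 and 33.3 CPM. Against the 128 and 101 CPM of uncalled barcodes, L6 IT CTX, L5 PT CTX, L2/3 IT CTX-2 and Pvalb were higher in both libraries. The test over the neuronal labels was passed (adjusted p = 0.0003).

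The L6 IT CTX nuclei that carried the highest Egr1 were shallow and mixed in their markers. Their median was 1800 and 2708 UMIs. All 9 microglial markers were seen in them, with a summed level of 798 and 1517 CPM against 460.5 and 856 CPM over all neuronal labels and 4255 and 4375 CPM in Micro-PVM, and Gad1 was at 65.3 and 14.6 CPM. L2/3 IT CTX-2, the third label by mean Egr1, was also shallow, with a median of 1506 and 1921 UMIs and 616 and 1734 CPM of microglial markers. Micro-PVM itself held less Egr1 than any neuronal label, and the part of the mixed markers in the Egr1 level was not tested.

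In inhibitory against excitatory labels Egr1 was called lower (log2 fold change -0.59 (SE 0.19), adjusted p = 0.029). The call did not hold without L6 IT CTX (-0.38 (SE 0.20), adjusted p = 0.22), in the neurons with fewer microglial UMIs (-0.30, adjusted p = 0.40), after thinning (-0.47, adjusted p = 0.18) or with the nuclei summed over classes (-0.27, adjusted p = 0.45). Summed over all nuclei of a class, the level was 170.1 and 147 CPM in excitatory and 129 and 111 CPM in inhibitory nuclei. L5 PT held more Egr1 than L2/3 IT in the point estimate, and the difference did not pass (log2 fold change 0.45 (SE 0.24), adjusted p = 0.28, 95% interval -0.05 to 0.94); summed over classes it passed (0.69 (SE 0.19), adjusted p = 0.026).

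Unknown nuclei were the exception among the neurons. Egr1 was at 16.0 CPM (male) and 8.83 CPM (female), with a UMI in 3 of 175 male and 4 of 163 female nuclei after thinning. Both values lay below those of Micro-PVM in the same library, and the difference from the excitatory labels was the largest of the 7 tested members there (log2 fold change -3.51 (SE 0.34), adjusted p = 5.6e-09). The same nuclei expressed the neuronal gene Rbfox3 at 1539 and 1712 CPM and held 441 and 786 CPM of the microglial markers, against 476 and 922 CPM in the excitatory labels. Some markers of other cell types were higher in Unknown than in the excitatory labels: the astrocyte transporters Slc1a3 at 88.3 and 75.7 CPM against 10.4 and 8.15 CPM (3.04, SE 0.27, adjusted p = 1.5e-09) and Slc1a2 (1.02, SE 0.19, adjusted p = 0.00011), the myelin gene Mbp (1.34, SE 0.18, adjusted p = 2.1e-06), and Gad1 at 22.3 and 39.1 CPM against 9.08 and 4.01 CPM (2.84, SE 0.42, adjusted p = 7.2e-06). Their part in the differences of Unknown was not tested. Atf3 itself had 4 and 8 UMIs in the larger of the 2 Unknown clusters and none in the other.

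Egr1 was also uneven between nuclei of a label. 21 nuclei held 10 or more Egr1 UMIs, 5 in the male and 16 in the deeper female library, and their median depth was 7828 UMIs. 7 carried the label L5 PT CTX, 6 L2/3 IT CTX-1, 4 L6 IT CTX, 2 L6 CT CTX, 1 L2/3 IT CTX-2 and 1 Sst. None was Unknown or Micro-PVM. In the female L2/3 IT CTX-1 sum 1 nucleus held 43 of 226 Egr1 UMIs, and in the female L6 CT CTX sum 1 nucleus held 25 of 57, without which the level there was 74.4 in place of 128 CPM. Over all neuronal nuclei, 332 male and 516 female held an Atf3 UMI, and 1012 and 639 did not. Those with an Atf3 UMI were deeper, with a median of 4347 and 10966 UMIs against 3391.5 and 6737. 17 of the 21 nuclei with 10 or more Egr1 UMIs also held an Atf3 UMI, the gene whose use marked these cells.

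That count, seen first, led to a split of the thinned neuronal nuclei by whether an Atf3 UMI remained after thinning, which is a description with no test. It set 166 male and 236 female nuclei with Atf3 beside 868 and 814 without. Egr1 was at 304 CPM with and 150.3 without an Atf3 UMI in the male library, and at 208 and 124 in the female. Taken within labels of at least 10 nuclei with an Atf3 UMI, it was higher with Atf3 in 3 of 4 male and 5 of 5 female labels. Male L2/3 IT CTX-1 differed most, at 565 and 96.0 CPM, with 10 of its 35 UMIs in 1 nucleus, and male Sst went the other way at 83.3 and 139. Female L2/3 IT CTX-1 was at 135 and 118 CPM, with 4 of the 7 UMIs of its nuclei with Atf3 in 1 nucleus. Its share of nuclei with an Egr1 UMI was not higher, at 11.5% with and 12.3% without Atf3. Homer1 was at 232 and 225 CPM in the male and 220.3 and 206 in the female library. Nptx2 was at 45.2 with and 25.9 without Atf3 in the male and 23.3 and 14.7 in the female library. Arc was at 15.1 and 13.2 in the male and 38.1 and 19.0 in the female. Nr4a1 went the other way, at 3.01 and 12.7 in the male and 4.24 and 6.76 in the female. Egr3, Npas4, Nr4a2 and Nr4a3 held few UMIs and are not given here.

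**Figure D2:**
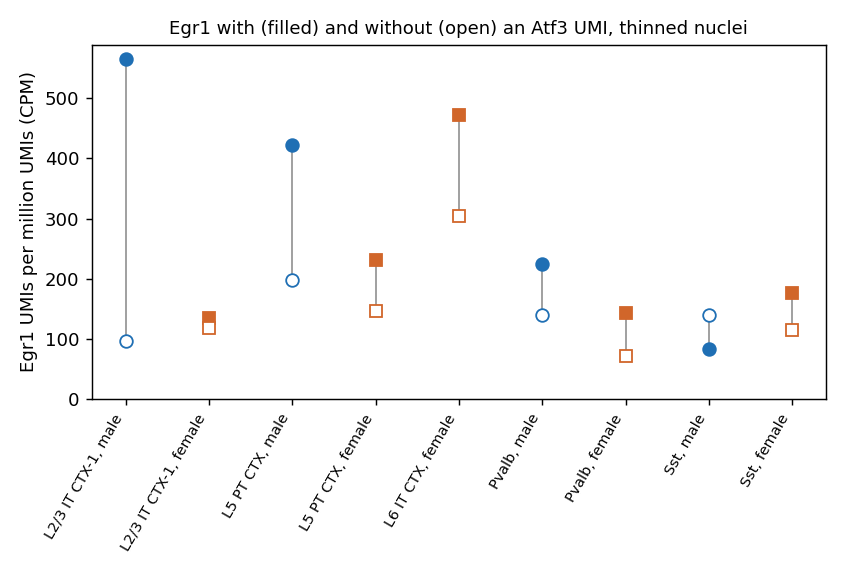
Egr1 level (CPM, axis from 0) in thinned nuclei with (filled) and without (open) an Atf3 UMI, by label and library. A grey line joins the filled and open points of a label, and no intervals are drawn. The filled point is above the open one in 3 of 4 male and 5 of 5 female labels.

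Egr3, a second factor of the Egr family that binds the same GC-rich core, had another distribution. It was highest in L4/5 IT CTX at 25.2 and 15.5 CPM and in L2/3 IT CTX-1 at 24.7 and 14.1 CPM, whose ranges overlapped. L5 PT CTX, with a high Egr1 level, was low for Egr3 at 4.90 and 2.31 CPM. Among interneurons Pvalb nuclei held 0 Egr3 UMIs in both libraries, which allows a level of up to 4.73 and 1.55 CPM, Sst held 2 and 1 UMIs and Vip 1 and 1. The level was 15.7 and 7.62 CPM over the excitatory and 1.93 and 0.563 CPM over the inhibitory nuclei.

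The inhibitory labels were lower than the excitatory ones (log2 fold change -3.26 (SE 0.77), adjusted p = 0.0031; -3.30 (SE 0.81), adjusted p = 0.016 with the nuclei summed over classes, where no group is at 0; the first value depends on the prior count because Pvalb is at 0), with a log2 ratio of -2.47 in the male library alone and -2.29 in the female alone. The neuronal labels differed among themselves (adjusted p = 0.00051). In the neurons with fewer microglial UMIs the inhibitory difference no longer passed (-2.82, adjusted p = 0.11). L5 PT against L2/3 IT did not pass (log2 fold change -1.89 (SE 0.74), adjusted p = 0.12), and passed with the library as a block (-1.82 (SE 0.60), adjusted p = 0.033) and with the nuclei summed over classes (-2.38 (SE 0.61), adjusted p = 0.016). Unknown was at 18.1 and 6.31 CPM, in the range of the excitatory labels (log2 fold change 0.43 (SE 0.51), adjusted p = 0.57, 95% interval -0.62 to 1.47). Uncalled barcodes reached 35.2 and 7.61 CPM, and Micro-PVM 8.42 and 1.74 CPM, and a neuronal difference from microglia was not detected (log2 fold change 0.14 (SE 0.46), adjusted p = 0.83).

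Npas4, a factor known to respond selectively to calcium, was near the limit of detection. It had 15 and 14 UMIs over all neuronal nuclei (2.52 and 1.27 CPM), 4 and 10 in Unknown (4.25 and 6.31 CPM) and 12 and 9 in Micro-PVM (4.81 and 1.12 CPM). L6 IT CTX and Vip held none. The share of thinned neuronal nuclei with a UMI, 0.290% and 0.286%, was not above the 0.962% and 0.262% of Micro-PVM in the male library and was within counting error of it in the female, so the neuronal shares are not read as expression. Without the filter on low counts the difference of Unknown from the excitatory labels was 2.01 (SE 0.83), adjusted p = 0.086.

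Nr4a1, Nr4a2 and Nr4a3 are orphan nuclear receptors that bind DNA without a known hormone. Nr4a1 was highest in L4/5 IT CTX at 46.4 and 26.8 CPM. L2/3 IT CTX-1 was at 13.8 and 9.98 CPM, L2/3 IT CTX-2 at 16.4 and 7.81 CPM and Unknown at 11.7 and 13.9 CPM, and these overlapped. L5 PT CTX was lower, at 3.67 and 4.05 CPM, and L6 CT CTX split between the libraries at 28.7 and 0 CPM. L6 IT CTX and Vip had 0 UMIs in both libraries, which allows up to 15.1 and 7.31 CPM and up to 24.3 and 16.7 CPM. The label with the highest Egr1 level thus had no Nr4a1 UMI, although its limit in the male library lies above the 10.9 CPM of all neuronal nuclei.

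The neuronal labels differed in Nr4a1 (adjusted p = 0.00034). Because labels at 0 have no log level, the mean over labels has no usable fold change between inhibitory and excitatory labels (adjusted p near 1), and sums over classes are given instead. They held 62 and 57 UMIs in excitatory nuclei (14.1 and 7.62 CPM) and 3 and 4 in inhibitory nuclei (1.93 and 1.13 CPM). That difference passed the test (-2.75 (SE 0.50), adjusted p = 0.0022), with DESeq2 on the labels as well (-2.30, adjusted p = 0.012). L5 PT against L2/3 IT did not pass (log2 fold change -1.45 (SE 0.69), adjusted p = 0.21), nor did Unknown against the excitatory labels (log2 fold change 1.52 (SE 0.72), adjusted p = 0.11; 0.46 summed over classes). Micro-PVM was at 5.21 and 3.85 CPM and uncalled barcodes at 22.8 and 8.70 CPM, and neurons were not shown to differ from Micro-PVM (log2 fold change -0.76 (SE 0.82), adjusted p = 0.45; 0.92 (SE 0.37), adjusted p = 0.051 summed over classes).

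Nr4a3 was, of the 7 tested members, the one called higher in Unknown. Its 5 and 24 UMIs there came from 5 and 14 nuclei, with at most 1 and 4 in 1 nucleus, and gave 5.32 CPM (male) and 15.1 CPM (female). The excitatory nuclei were at 2.73 and 2.27 CPM, and uncalled barcodes at 4.14 and 4.35 CPM. The difference passed the test (log2 fold change 2.65 (SE 0.70), adjusted p = 0.0047; 2.30 (SE 0.55), adjusted p = 0.0067 summed over classes). A fold that takes the mean over labels at 0 depends on the prior count, which is why the class value is given. The log2 ratio was 1.62 in the male library alone and 2.64 in the female alone. L4/5 IT CTX overlapped with Unknown at 11.6 and 7.04 CPM, and L2/3 IT CTX-2 differed between libraries with 0 and 6 UMIs. After thinning, Unknown had a UMI in 3 of 175 male and 1 of 163 female nuclei and the excitatory labels in 5 of 750 male and 6 of 736 female nuclei, so the female shares do not carry the order of the levels.

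Over the neuronal labels Nr4a3 differed (adjusted p = 0.025), with 0 UMIs in L6 IT CTX and Vip and 0 and 1 in Pvalb, as for Nr4a1. L5 PT CTX held 1 and 2 UMIs (0.612 and 0.578 CPM), and its difference from L2/3 IT did not pass (log2 fold change -2.70, 95% interval -4.77 to -0.63, adjusted p = 0.092). The log2 ratio was 0.07 in the male library alone and -2.51 in the female alone, so 1 library carried the direction. Inhibitory nuclei held 1 and 2 UMIs, and summed over classes the difference from excitatory nuclei did not pass (-1.87 (SE 0.86), adjusted p = 0.20). Neurons against Micro-PVM at 0.802 and 1.37 CPM gave log2 fold change -0.17 (SE 0.41), adjusted p = 0.77, and summed over classes the sign turned (0.71 (SE 0.63), adjusted p = 0.36).

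Nr4a2, which marks a few deep-layer and subcortical neurons, was below the filter of the test. It had 16 and 13 UMIs in all neuronal nuclei (2.69 and 1.18 CPM) and 9 and 15 in Unknown (9.57 and 9.46 CPM), with none in Sst or Vip. In a fit without the filter Unknown was higher than the excitatory labels (1.99 (SE 0.59), adjusted p = 0.0063), and likewise summed over classes (2.29 (SE 0.56), adjusted p = 0.0075). The log2 ratio was 1.18 in the male library alone and 3.33 in the female alone. Unknown was made of 2 deposited clusters, cluster 7 with 190 and 143 nuclei and cluster 23 with 35 and 27. Nr4a2 was at 7.79 and 7.97 CPM in cluster 7 and 48.0 and 37.2 CPM in cluster 23, the latter from 2 and 3 UMIs. Nr4a3 was at 5.56 and 15.9 CPM in cluster 7. Beside this the Unknown nuclei held Bcl11b, a factor of deep-layer and striatal neurons, at 356 and 335 CPM. They held Slc17a7 at 222 and 137 CPM, above the excitatory labels, with 166 and 80.5 CPM in uncalled barcodes. Unknown held no Fezf2 UMI, but nor did L2/3 IT CTX-2, L4/5 IT CTX or L6 IT CTX. L5 PT CTX was at only 3.06 and 5.78 CPM of Fezf2, so its absence does not set Unknown apart.

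Arc, whose protein drives the removal of AMPA receptors, was higher in excitatory than in inhibitory nuclei. It was at 19.1 CPM (male) and 27.9 CPM (female) in excitatory nuclei and at 7.08 and 7.03 CPM in inhibitory nuclei, which did not overlap. L2/3 IT CTX-1 was at 19.3 and 33.1 CPM, L4/5 IT CTX at 17.4 and 23.9 CPM, L5 PT CTX at 15.3 and 25.7 CPM and L6 IT CTX at 25.1 and 24.4 CPM. The excitatory labels overlapped, and L2/3 IT CTX-2 (65.5 and 23.4 CPM, 12 and 6 UMIs) and L6 CT CTX (4.78 and 31.4 CPM, 1 and 14 UMIs) differed most between libraries. Vip held 0 and 1 UMIs.

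Arc was lower in inhibitory than in excitatory labels (log2 fold change -2.14 (SE 0.53), adjusted p = 0.0042; -1.62 (SE 0.46), adjusted p = 0.036 summed over classes). After thinning the same difference did not pass (-3.10, adjusted p = 0.092). L5 PT and L2/3 IT were not shown to differ (log2 fold change -0.56 (SE 0.47), adjusted p = 0.56, 95% interval -1.53 to 0.42). Over the neuronal labels the test was missed (adjusted p = 0.068) and passed with the library as a block (adjusted p = 0.0082). In Unknown Arc was at 2.13 and 6.94 CPM, lower than in the excitatory labels (log2 fold change -2.12 (SE 0.59), adjusted p = 0.0060), and after thinning this did not pass (-1.09, adjusted p = 0.37). Neurons held more than Micro-PVM, at 4.81 and 0.995 CPM (log2 fold change 2.81 (SE 0.73), adjusted p = 0.0016; 3.19 (SE 0.54), adjusted p = 0.00032 summed over classes), with a log2 ratio of 1.05 in the male library alone and 3.38 in the female alone. This call was lost after thinning (2.04) and in the neurons with fewer microglial UMIs (2.08), where labels at 0 left no usable error and an adjusted p of 1. Uncalled barcodes were at 12.4 and 16.3 CPM. The shares of thinned nuclei were 3.07% and 5.57% in excitatory nuclei, 0.704% and 1.59% in inhibitory nuclei and 1.60% and 0.157% in Micro-PVM.

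Homer1 was found under every neuronal label, and no difference between them passed. Over the 9 neuronal labels and both libraries it ranged from 145 CPM (Sst, female) to 307 CPM (L6 CT CTX, female), and the labels overlapped. L5 PT CTX was at 282 and 270.4 CPM, L2/3 IT CTX-1 at 221 and 193 CPM, Pvalb at 164 and 275 CPM and Vip at 252 and 239 CPM. Pvalb in the male library (164 CPM) and Sst in the female (145 CPM) lay below the uncalled barcodes of the same library. Over all labels adjusted p = 0.27, L5 PT against L2/3 IT 0.47 (SE 0.21) with 95% interval 0.04 to 0.90, and inhibitory against excitatory -0.15 (SE 0.14) with 95% interval -0.43 to 0.13.

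Unknown and microglia stood apart. In Unknown Homer1 was at 85.1 and 112 CPM, below every neuronal label (log2 fold change -1.10 (SE 0.21), adjusted p = 0.00015), and in Micro-PVM at 57.3 and 55.6 CPM (log2 fold change 2.09 (SE 0.21), adjusted p = 2.9e-09 for neurons against Micro-PVM). Thinned shares followed the levels, at 33.4% and 31.2% in neurons, 13.1% and 19.0% in Unknown and 9.62% and 10.6% in Micro-PVM. 56.0 nuclei held 10.0 or more Homer1 UMIs, 21.0 of them L5 PT CTX and 14.0 Pvalb, and 49.0 in the deeper female library. Their median depth was 17576 UMIs, and 36 of the 56 also held an Atf3 UMI. None of the 56 was among the nuclei with as many Egr1 UMIs, and no other member reached that count in any nucleus. In the female Pvalb sum 1 nucleus held 63 of 533 Homer1 UMIs.

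Nptx2 was the member that separated the layers. L2/3 IT CTX-1 was at 34.3 CPM (male) and 24.0 CPM (female) and L2/3 IT CTX-2 at 65.5 and 19.5 CPM. L5 PT CTX was at 7.35 and 5.21 CPM. The layer II/III labels lay above L5 PT CTX in both libraries with no overlap, and the difference passed the test (log2 fold change -2.37 (SE 0.43), adjusted p = 0.00041). After thinning it was -1.92 (SE 0.65), adjusted p = 0.056, which did not pass. Nptx2 was thus lower in the label in which the point estimate of Egr1 was higher.

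Among interneurons Sst held Nptx2 at 21.4 and 18.1 CPM, in the range of the excitatory labels, whereas Pvalb was at 6.31 and 4.13 CPM and Vip held 1 and 1 UMIs. The neuronal labels differed (adjusted p = 0.0011). Inhibitory against excitatory passed by a small margin (log2 fold change -1.07 (SE 0.38), adjusted p = 0.049), and with similar or larger folds except in the last it did not pass with DESeq2 (-1.08, adjusted p = 0.070), without the filter (-1.05, adjusted p = 0.057), after thinning (-2.91, adjusted p = 0.062), with the limits of the methods on nuclei (-1.06, adjusted p = 0.051), in the neurons with fewer microglial UMIs (-0.97, adjusted p = 0.25) or summed over classes (-0.48, adjusted p = 0.43). Of 11 UMIs in female L6 IT CTX, 6 were in 1 nucleus. Unknown was at 29.8 and 17.0 CPM and not shown to differ from the excitatory labels (log2 fold change 0.43 (SE 0.34), adjusted p = 0.36). Neurons were above Micro-PVM at 3.61 and 1.49 CPM (log2 fold change 2.75 (SE 0.44), adjusted p = 5.6e-06), with a log2 ratio of 1.87 in the male library alone and 2.68 in the female alone, although uncalled barcodes held 31.1 and 15.2 CPM. After thinning that call was lost (2.57, adjusted p of 1), again with labels at 0 and no usable error.

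**Figure D3:**
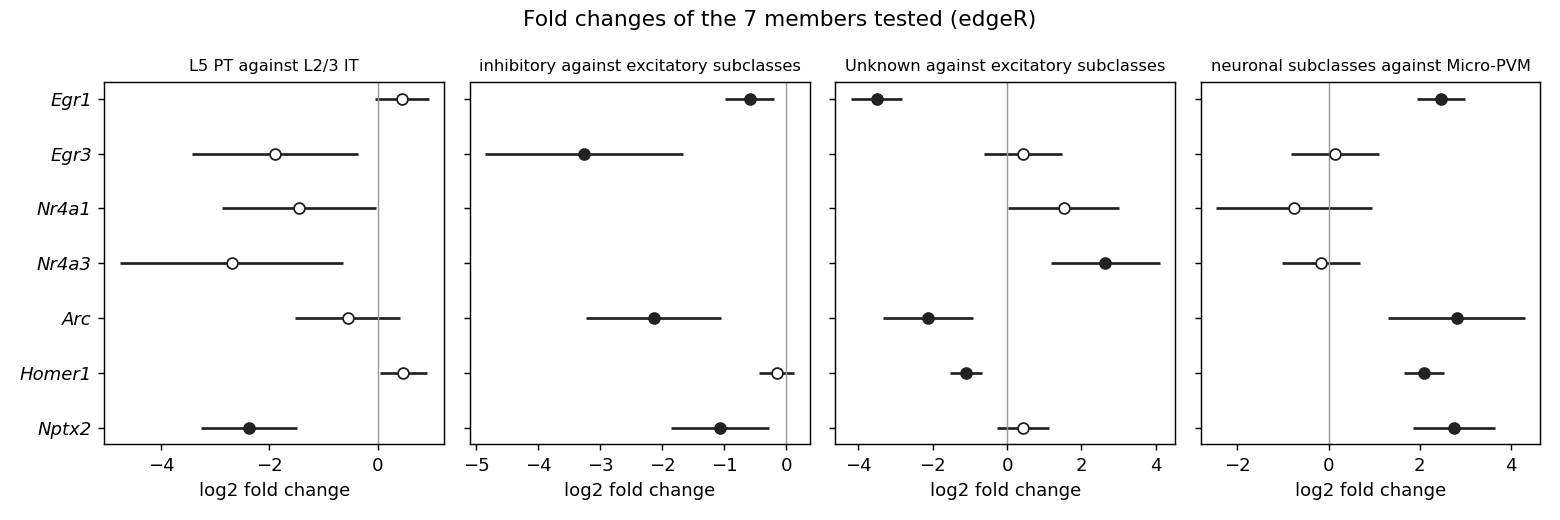
Log2 fold changes of the 7 members tested in the 4 comparisons with a direction, with 95% intervals from the edgeR fit of the 22 sums and filled points for an adjusted p under 0.05. Nr4a1 and Nr4a3 are not drawn for inhibitory against excitatory, where labels at 0 left no usable error. Egr3 there and both in Unknown are drawn although a label was at 0 (Pvalb, and L6 IT CTX). Nptx2 is the member called in L5 PT against L2/3 IT (-2.37 (SE 0.43)), and in Unknown Egr1 (-3.51 (SE 0.34)) and Nr4a3 (2.65 (SE 0.70)) lie on opposite sides of 0.

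**Figure D4:**
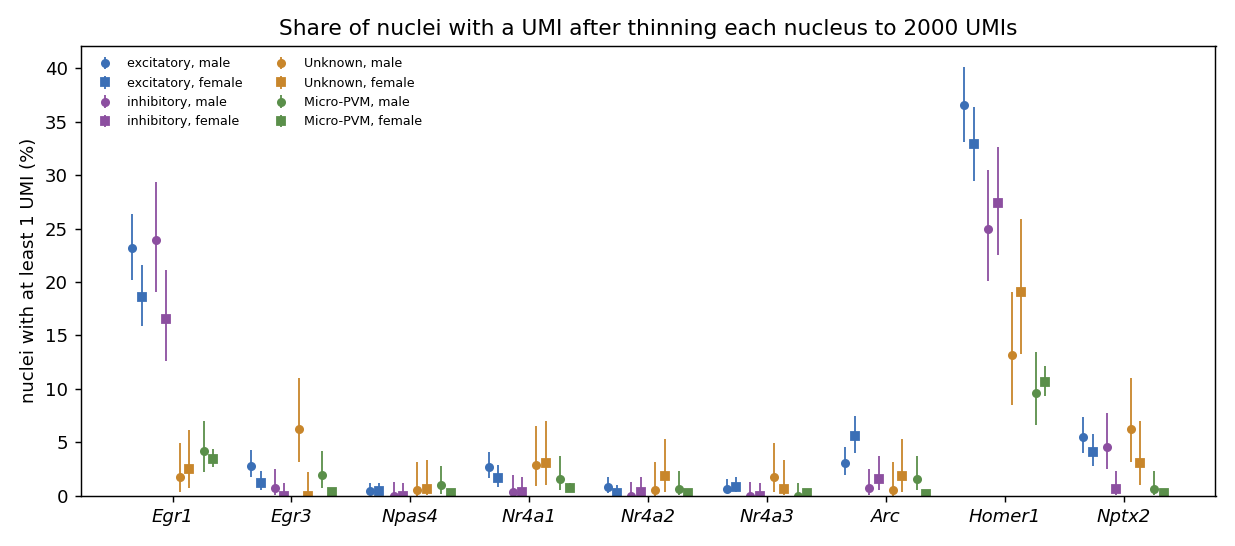
Share of nuclei with at least 1 UMI of each member after thinning every nucleus to 2000 UMIs, by class and library, with exact binomial (Clopper-Pearson) 95% intervals that cover counting error only. Homer1 (36.5% and 32.9%) and Egr1 (23.2% and 18.6%) are found in many excitatory nuclei, and Npas4, Nr4a2 and Nr4a3 lie near the shares of Micro-PVM.

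Other activity-induced genes, a list of 32 that holds Fos, Jun and their kin, Bdnf and secreted products, had 23 members tested. Fos itself was nearly absent, at 2.95 and 1.20 CPM in excitatory and 0 and 0.281 CPM in inhibitory nuclei. In inhibitory against excitatory labels 2 were higher and 9 lower, with a median of -0.59 against -0.07 over all genes. Lower were Junb, a partner of Fos (-3.66, SE 1.12, adjusted p = 0.021), and Btg2, which slows division (-3.48, SE 0.61, adjusted p = 0.00016), and higher were Tiparp (1.14, SE 0.31, adjusted p = 0.0092) and Pcsk1, a protease that processes neuropeptides (0.69, SE 0.24, adjusted p = 0.040). In L5 PT against L2/3 IT 1 was called, as lower: Plk2, a kinase linked to the weakening of synapses (-1.24, SE 0.26, adjusted p = 0.0018).

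In Unknown 12 of the 23 were lower than in the excitatory labels and 2 higher, with a median of -1.21 against 0.03 over all genes. The lower ones were led by Trib1 (-3.90, SE 0.61, adjusted p = 1.4e-05) and Cdkn1a, a cell cycle inhibitor (-3.34, SE 0.68, adjusted p = 0.00034). Higher were Bdnf, the growth factor that calcium induces (2.73, SE 0.27, adjusted p = 9.1e-09), and Plk2 (0.90, SE 0.20, adjusted p = 0.00087). Bdnf was at 154 and 151 CPM in Unknown and 47.2 and 32.3 CPM in excitatory nuclei, which did not overlap, so Bdnf and Nr4a3 were higher under the label in which Egr1, Arc and Homer1 were lower. Against Micro-PVM 13 of the list were higher in neurons, led by the secreted Scg2 (3.71, SE 0.25, adjusted p = 2.3e-12) and Inhba (3.56, SE 0.23, adjusted p = 1.2e-12), and 4 lower, led by Rgs2 (-3.86, SE 0.26, adjusted p = 2.3e-12) and Dusp6 (-3.59, SE 0.57, adjusted p = 7.1e-06), which restrain receptor and kinase signals.

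Of 19 upstream regulators tested, 1 was higher and 3 lower in L5 PT than in L2/3 IT. The higher one was Crem, a CREB relative (0.75, SE 0.20, adjusted p = 0.014), and Camk4, the nuclear calcium kinase that acts on CREB (-1.70, SE 0.32, adjusted p = 0.0007), and Ppp3ca, the catalytic subunit of calcineurin (-0.76, SE 0.16, adjusted p = 0.0016), were lower. In inhibitory labels 3 were higher, led by the CREB coactivator Crtc3 (0.90, SE 0.13, adjusted p = 1.3e-05) and Crem (0.66, SE 0.13, adjusted p = 0.00074), and 3 lower, led by Camk4 (-2.50, SE 0.28, adjusted p = 1.9e-07) and its activating kinase Camkk2 (-0.99, SE 0.18, adjusted p = 0.00021). In Unknown 8 were higher, led by Ppp3ca (2.19, SE 0.11, adjusted p = 9.9e-14) and the synaptic kinase Camk2a (1.98, SE 0.13, adjusted p = 9.2e-12), and 2 lower, Camk4 (-1.92, SE 0.32, adjusted p = 3.5e-05) and Crem (-1.22, SE 0.22, adjusted p = 6.5e-05). Against Micro-PVM 6 were higher, led by Camk2a (2.47, SE 0.18, adjusted p = 1.3e-11) and Crem (1.13, SE 0.17, adjusted p = 2.1e-06), and 9 lower, led by Mef2a (-2.63, SE 0.11, adjusted p = 1.6e-16) and Mef2c (-1.90, SE 0.12, adjusted p = 1.1e-12), which microglia also use. The medians of the list were -0.14, -0.18, 0.43 and -0.24 in these comparisons, beside 0.01, -0.07, 0.03 and -0.10 over all genes.

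Of 12 partners of the members tested, 2 were higher in L5 PT than in L2/3 IT, the scaffolds Shank1 (0.82, SE 0.22, adjusted p = 0.015) and Shank3 (0.75, SE 0.22, adjusted p = 0.023) to which Homer proteins bind. Lower were 3, led by Gria4, the AMPA receptor subunit that neuronal pentraxins gather (-3.20, SE 0.35, adjusted p = 7.6e-07), and Nptx1, the other secreted pentraxin (-2.53, SE 0.74, adjusted p = 0.028). Nptx1 and Nptx2 were therefore both lower in L5 PT than in L2/3 IT. In inhibitory labels 3 were higher, among them Homer2 (0.90, SE 0.18, adjusted p = 0.0006), and 1 lower, Nptx1 (-3.98, SE 0.84, adjusted p = 0.0010). In Unknown 7 were higher, led by the pentraxin receptor Nptxr (3.80, SE 0.49, adjusted p = 1e-06), and 1 lower, Arnt2, the DNA-binding partner of Npas4 (-2.12, SE 0.18, adjusted p = 9.9e-10). Against Micro-PVM 8 were higher, led by Shank2 (3.39, SE 0.23, adjusted p = 1.9e-12) and Arnt2 (3.33, SE 0.18, adjusted p = 5.8e-14), and 2 lower, Rxra, a partner of some Nr4a receptors (-3.68, SE 0.24, adjusted p = 1.7e-12), and Nab1, a corepressor of Egr proteins (-1.96, SE 0.25, adjusted p = 2.1e-07). The medians of the list were -0.35, 0.16, 0.73 and 1.96 in the same order. Over the neuronal labels 12 of the other activity-induced genes, 11 of the regulators and 10 of the partners differed somewhere.

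Single nuclei seldom held several members at once. Leaving out Homer1, 333 of 1034 thinned male and 268 of 1050 female neuronal nuclei had a UMI of at least 1 of the other members, and 42 and 30 had UMIs of 2 or more. Arc and Egr1 were found together in 11 male nuclei where the product of their shares gives 5.85, and in 14 female nuclei where the product of their shares gives 8.28. Arc and Nptx2 were found together in 3 male nuclei where the product of their shares gives 1.31 and 7 female nuclei where the product of their shares gives 1.40. Egr1 and Homer1 were found together in 76 male nuclei where the product of their shares gives 80.7 and 55 female nuclei where the product of their shares gives 59.0. Among thinned Unknown nuclei, 28 of 175 male and 18 of 163 female had a UMI of at least 1 member other than Homer1. Of these, 5 and 4 had UMIs of 2 or more. Before thinning, 1 female Unknown nucleus of 6937 UMIs held UMIs of every member but Nr4a1. All these counts are descriptions over sparse data, in which the labels themselves differ in level.

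Across the 22 sums, which share the library and its depth, the genes most like each member in log2 CPM were as follows, with Pearson's r as a description. Egr1 was most like Gm13889 (r = 0.933) and D5Ertd615e (r = 0.913), and Homer1 most like Atp8b2 (r = 0.914) and Hecw2 (r = 0.911). Arc was most like Ranbp6 (r = 0.880) and Gm2164 (r = 0.826), Egr3 like Cacna2d1 (r = 0.874) and Pcsk2 (r = 0.853) and Nptx2 like D630045J12Rik (r = 0.815) and P4htm (r = 0.788). Nr4a1 was most like Mthfd1 (r = 0.880) and Celf2 (r = 0.802), and Nr4a3 like Mir670hg (r = 0.818) and Zkscan16 (r = 0.809). Among the members themselves the highest correlations were those of Nr4a1 with Nr4a3 (0.708), Egr3 with Nr4a1 (0.631), Egr1 with Homer1 (0.613) and Arc with Egr1 (0.591).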

How the data were processed

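Nuclei were profiled with droplet 3′ chemistry. UMIs were counted by the authors for every gene and barcode on a pre-mRNA reference (mm10), so introns are included, and the counts were deposited without normalization, for called and for all barcodes. The submitters' processing notes name Cell Ranger 3.1.0, Seurat and DESeq2, while the methods and file headers name later versions of Cell Ranger. The authors also deposited a table of nuclei with cluster and predicted cell type, from which the labels were taken, and a percent of mitochondrial UMIs, used in 1 alternative. A matrix of depth-corrected values was not used, nor was 1 column of the table. How doublets were treated is not given in the sources used here, and none were called. Rows of vector sequence, 0.0004804% and 0.0007999% of UMIs, were left out.

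UMIs were summed per library and label with at least 50 nuclei over both libraries. The 22 sums were fitted once in edgeR 4.0.16 (R 4.3.3, limma 3.58.1) with TMM, filterByExpr, glmQLFit and glmQLFTest, and Benjamini-Hochberg adjustment over 10610 genes. The common dispersion was 0.0308. A mean over labels weighs each label equally. Where a label was at 0, sums over classes (genes with at least 20 UMIs) are given too, and a level of 0 allows up to 3 UMIs. Shares have exact 95% intervals, and intervals and limits cover counting error only. Alternatives were DESeq2 1.42.0, library totals, no filter, the library as a replicate block, thinning to 2000 UMIs, limits of 6000 genes and 5% mitochondrial UMIs, and each library alone. Chosen after seeing the data were the neurons under the median of microglial UMIs, the sums over classes and a fit without L6 IT CTX. Levels and figures were made in Python 3.11.15 with matplotlib 3.10.9, pandas 2.3.3, scipy 1.17.1 and numpy 2.4.6 (seed 1), and the fits were tested on simulated counts.

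The members and gene lists were chosen with earlier results of these data known. All members are described. Of each list the text names the 2 called genes with the largest fold change in each direction, and for each member the 2 genes most like it. Of the partners, 1 gene that this rule names is not reported here. Sums of 1 library share its pool of animals, and their deviations correlated in all 55 pairs of labels (r from 0.0260 to 0.410, median 0.153, over 10610 genes).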

Additional observations from a re-analysis of the deposited data

How the results depend on the processing

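Thinning, which leaves out most UMIs, had the largest effect. Of 7078 genes tested it called 598 in L5 PT against L2/3 IT, 1086 in inhibitory against excitatory, 2123 in Unknown and 1949 over the neuronal labels. Among them by edgeR were 0, 0, 2 and 2 of the 4 members that could still be tested. At an unadjusted p under 0.05, 2 of the 4 passed in the first comparison and 3 in the second. Against Micro-PVM 4685 of the 7078 genes were called, 2 members among them. In the neurons with fewer microglial UMIs 697 and 1408 of 8502 genes were called in the first 2 comparisons, with 1 of 6 tested members in each. With the library as a replicate block 1684, 2501, 4249, 7434 and 4456 of 10610 genes were called in the 5 comparisons. In L5 PT against L2/3 IT 2 of 7 tested members were called. Beyond Egr3 there and Arc over the neuronal labels the block changed no call of a member. Sums over classes called 3 of 9 members in L5 PT against L2/3 IT, where 1376 of 15499 genes were called. DESeq2 turned the sign of Nr4a3 in neurons against Micro-PVM to 0.59, sums over classes to 0.71 and leaving out L6 IT CTX to 0.28. Sums over classes also turned Nr4a1 there to 0.92, and the neurons with fewer microglial UMIs turned Nr4a1 in L5 PT against L2/3 IT to 1.90. None of these reversed values passed the test, and the cause was not tested. In 1 library at a time, with no test, Nptx2 in L5 PT was at -2.49 to -1.81, Egr1 in inhibitory labels at -0.80 to -0.25, Arc in neurons against Micro-PVM at 1.05 to 3.38, and Nr4a3 in Unknown at 1.62 to 2.64 on the log2 scale. The planned limit on microglial UMIs per nucleus was not run because 1 sum was left with no nuclei. Depth limits Npas4, Nr4a2 and Nr4a3, and every inhibitory sum of Egr3 and Nr4a1.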
